A study of Mus musculus with 24 samples.

Results

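The genes described here are 8 dual-specificity phosphatases, Dusp1, Dusp4, Dusp5, Dusp6, Dusp7, Dusp9, Dusp10 and Dusp16. They were found by symbol among the 35022 genes counted after PD03 removal and the 48709 genes counted after CHIRON removal, and each symbol matched 1 row in both. RNA was sequenced from wild-type E14 mouse embryonic stem cells (mESCs, of 129 background) on fibronectin-coated StemBond hydrogels that were either soft or stiff. All cells first spent 12 h on the gels in 2i + LIF, a medium with 1 µM PD03 (an inhibitor of MEK, the kinase that activates ERK), 3 µM CHIRON (an inhibitor of GSK3, whose block stabilises β-catenin) and the cytokine LIF. Either PD03 was then removed, leaving CHIRON + LIF, or CHIRON was removed, leaving PD03 + LIF, and RNA was collected at 0 h (still 2i + LIF), 2 h and 12 h. With 2 substrates and 3 times, each experiment comprised 6 groups of 2 libraries, 24 libraries in all. Cells kept in 2i + LIF up to 2 h or 12 h are not among the groups, so removal of an inhibitor cannot be told apart from time in culture and a change of medium. The labels number the replicates but do not say that they came from separate cultures, so the p-values measure the spread between these libraries, which may be technical.

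MAP kinases are switched on by phosphorylation of a threonine and a tyrosine in their activation loop, and dual-specificity phosphatases of the MAP kinase phosphatase family remove both phosphates. Dusp1, Dusp4 and Dusp5 are nuclear enzymes encoded by inducible genes. Dusp1 also acts on the stress kinases JNK and p38, whereas Dusp5 is selective for ERK. Dusp6, Dusp7 and Dusp9 are cytoplasmic and prefer ERK, and Dusp6 is a widely used transcriptional readout of ERK signalling and part of its negative feedback. Dusp10 and Dusp16 act mainly on JNK and p38. In mESCs, ERK activity downstream of FGF4 promotes exit from naïve pluripotency, which is why 2i medium contains a MEK inhibitor.

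Total counts ranged from 16222196 to 26442153 over the 12 libraries of PD03 removal and from 19393787 to 31111260 over 11 libraries of CHIRON removal. The remaining library, replicate 1 of stiff at 2 h after CHIRON removal, held 171333 counts in all and between 0 and 10 counts of each Dusp gene. The study discarded it for its few reads, and it was left out here unless stated. The stiff 2 h group of CHIRON removal therefore has 1 library, which was assumed to vary like the other groups. The mitochondrial share of the counts moved with time after PD03 removal, from between 5.70% and 7.03% at 0 h to between 10.03% and 11.81% at 12 h. At 2 h it was 7.14% and 7.72% on soft and 9.48% and 8.90% on stiff substrates. After CHIRON removal it ranged from 2.27% to 4.57%, and 0 h and 12 h overlapped. All 8 listed mESC markers had a mean above 1 CPM (counts scaled to library size with TMM factors) in both experiments. Their summed level was 6860 to 7010 CPM at 0 h and 5610 to 6000 CPM at 12 h after PD03 removal, and 5200 to 5470 CPM and 5160 to 5400 CPM after CHIRON removal. The summed level of 5 mesoderm markers, which include the Wnt target T, lay between 21.1 and 24.4 CPM at 0 h and between 49.0 and 57.2 CPM at 12 h after PD03 removal, and between 22.8 and 25.2 CPM and between 13.7 and 16.5 CPM after CHIRON removal. That of 5 neural markers lay between 98.2 and 108 CPM at 0 h and 82.6 and 89.1 CPM at 12 h after PD03 removal, and between 71.5 and 82.5 CPM and 127 and 137 CPM after CHIRON removal. Single markers did not all follow these sums. At 12 h after PD03 removal, edgeR called 1 of 5 tested neural markers higher and 2 lower on each substrate (adjusted p under 0.05). Their median log2 fold change was 0.273 on soft and 0.121 on stiff substrates. Of 4 tested mesoderm markers, 2 were called higher and 1 lower on each. Of all genes, 29.4% were called on soft and 38.4% on stiff substrates. After CHIRON removal, 7 fibroblast markers summed to 17.2 to 19.2 CPM at 0 h and 12.8 to 15.3 CPM at 12 h, and 5 trophoblast markers to 64.6 to 69.1 CPM and 74.2 to 81.4 CPM. The sums of both lists overlapped between 0 h and 12 h after PD03 removal, and those of primitive endoderm markers did so in both experiments. The fibroblast markers Postn and Dcn had means of at most 0.02 CPM. Of the mesoderm and neural markers, Mesp1 and Neurod1 had means below 1 CPM in both experiments. The part of such markers, and of the mitochondrial share, in the values of the Dusp genes was not tested. In these bulk samples, a change in the share of a cell type and a change in RNA per cell cannot be told apart.

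The 8 genes lie on 8 different chromosomes. In the GENCODE M21 annotation of GRCm38 they are Dusp1 (ENSMUSG00000024190, chr17:26505590-26562128, minus strand), Dusp4 (ENSMUSG00000031530, chr8:34807297-34819894, plus strand), Dusp5 (ENSMUSG00000034765, chr19:53529109-53542431, plus strand) and Dusp6 (ENSMUSG00000019960, chr10:99263231-99267489, plus strand). The others are Dusp7 (ENSMUSG00000053716, chr9:106368632-106375724, plus strand), Dusp9 (ENSMUSG00000031383, chrX:73639419-73643514, plus strand), Dusp10 (ENSMUSG00000039384, chr1:184013302-184075636, plus strand) and Dusp16 (ENSMUSG00000030203, chr6:134715468-134792625, minus strand). An antisense gene, AC137853.2, covers 22.1% of the 2473 exonic bases of Dusp5, and Ergic1 covers 0.332% of those of Dusp1. The other 6 genes share no exonic base with another gene. The strand setting of the counting is not given in the sources used here. On the shared 22.1% of bases, reads of Dusp5 and its antisense partner therefore cannot be told apart.

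The promoters of 6 of the 8 genes were found in the RefSeq table (GRCm38.p6). The 250 bases before the RefSeq start were searched on both strands. The motifs were AP-1 (TGANTCA), the cyclic AMP response element CRE (TGACGTC), ETS (CCGGAA), TCF (CTTTGAT) and the SRF-bound CArG box. The RefSeq start is not always the outer start of the GENCODE gene given above. The windows of Dusp1 and Dusp10 lie inside their GENCODE genes, and that of Dusp5 runs into the first bases of its gene. Those of Dusp1 and Dusp5 are shown because they held matches, and those of Dusp6 and Dusp16 because these genes had the largest differences between the experiments at 2 h and in the upward direction at 12 h. Capitals mark the matches.
Dusp1 chr17:26508473-26508722 (- strand): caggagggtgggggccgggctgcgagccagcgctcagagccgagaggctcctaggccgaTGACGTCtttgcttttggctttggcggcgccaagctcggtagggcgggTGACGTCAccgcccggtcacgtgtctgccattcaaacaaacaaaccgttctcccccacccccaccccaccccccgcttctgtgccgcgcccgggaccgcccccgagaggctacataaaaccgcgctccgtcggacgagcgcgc
Dusp5 chr19:53528895-53529144 (+ strand): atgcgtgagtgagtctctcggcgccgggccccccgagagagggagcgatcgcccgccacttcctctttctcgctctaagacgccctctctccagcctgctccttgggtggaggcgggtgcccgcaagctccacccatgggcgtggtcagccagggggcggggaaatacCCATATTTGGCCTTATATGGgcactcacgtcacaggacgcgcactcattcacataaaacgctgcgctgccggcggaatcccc
Dusp6 chr10:99262981-99263230 (+ strand): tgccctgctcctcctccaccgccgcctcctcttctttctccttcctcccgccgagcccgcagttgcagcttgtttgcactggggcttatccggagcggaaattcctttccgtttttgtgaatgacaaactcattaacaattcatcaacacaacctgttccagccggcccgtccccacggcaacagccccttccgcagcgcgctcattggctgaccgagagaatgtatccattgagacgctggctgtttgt
Dusp16 chr6:134792629-134792878 (- strand): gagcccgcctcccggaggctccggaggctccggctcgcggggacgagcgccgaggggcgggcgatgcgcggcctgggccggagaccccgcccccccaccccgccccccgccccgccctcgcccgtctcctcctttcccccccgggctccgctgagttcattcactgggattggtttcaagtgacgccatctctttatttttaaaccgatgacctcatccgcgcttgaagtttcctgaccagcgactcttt

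Dusp1 held 3 CRE matches at 2 places, 1 from 191 to 185 bases before the start and a pair on opposite strands that overlap from 143 to 136 bases before it. Dusp5 held 2 adjacent CArG boxes, CCATATTTGG from 82 to 73 and CCTTATATGG from 72 to 63 bases before the start, which also match on the other strand. Of all 32851 promoters in the table, 2.78% held the CRE and 1.47% a CArG box. AP-1 was found in 6.75%, ETS in 12.0% and TCF in 3.21% of them. No match of the 5 motifs lay in this window of Dusp6, Dusp7, Dusp10 or Dusp16.

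The levels in 2i + LIF at 0 h gave the order of the genes before either removal. Normalised per kilobase of merged exons, the order on soft substrates at 0 h before PD03 removal was Dusp9 (20.0 ± 0.770 CPM per kb, SD, n = 2), Dusp6 (11.1 ± 0.107), Dusp1 (10.0 ± 0.689), Dusp16 (3.87 ± 0.373), Dusp7 (3.38 ± 0.169), Dusp5 (3.08 ± 0.575), Dusp10 (2.68 ± 0.157) and Dusp4 (0.852 ± 0.137). The neighbours from Dusp16 to Dusp10 were within their SDs of each other. Before CHIRON removal the order on soft substrates was Dusp1 (27.7 ± 0.0131 CPM per kb), Dusp7 (8.94 ± 0.593), Dusp9 (7.20 ± 0.388), Dusp10 (6.68 ± 0.0919), Dusp6 (5.25 ± 0.0929), Dusp16 (4.95 ± 0.144), Dusp5 (2.79 ± 0.120) and Dusp4 (1.26 ± 0.0764). On stiff substrates, Dusp9 and Dusp10, Dusp10 and Dusp6, and Dusp6 and Dusp16 were within their SDs of each other there. Dusp4 was the lowest gene and Dusp5 the second lowest before CHIRON removal, whereas the top gene changed from Dusp9 to Dusp1. With the longest transcript as the length, Dusp1 (14.3 CPM per kb) moved above Dusp6 (12.4 CPM per kb) before PD03 removal, and Dusp16 (7.56 CPM per kb) moved above Dusp10 (7.28 CPM per kb) and Dusp9 before CHIRON removal. The labels place the experiments in different library sets, so experiment and library set cannot be told apart, and 0 h levels were not tested between them.

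To ask whether release of GSK3 with MEK still inhibited alters these genes early, 2 h was compared with 0 h after CHIRON removal. No gene of the 8 passed an adjusted p of 0.05 in edgeR's quasi-likelihood test on either substrate (0 of 8 on soft and 0 of 8 on stiff, with 0.226% and 0.103% of all 14610 tested genes called). DESeq2 also called 0 on each. At an unadjusted p under 0.05 there were 2 of the 8 genes on soft and 0 on stiff, against 1329 and 1016 of all 14610 genes. The 2 on soft substrates were Dusp6 and Dusp1. Dusp6 stood at 16.6 and 16.2 CPM at 0 h and 12.24 and 12.33 CPM at 2 h on soft gels. Its log2 fold change was −0.42 ± 0.126 (SE; adjusted p = 0.282). Dusp1 stood at 91.6 and 91.7 CPM and at 80.8 and 67.8 CPM, a log2 fold change of −0.30 ± 0.0987 (adjusted p = 0.315). Both libraries at 2 h were below both at 0 h for each gene. On stiff substrates, the single 2 h library had 15.8 CPM of Dusp6 and 78.2 CPM of Dusp1, also below both 0 h libraries (18.2 and 17.6 CPM, and 82.7 and 92.0 CPM). The share of all genes whose libraries separate in this way was not counted, for these groups or for those compared below. The values of Dusp7, Dusp9 and Dusp16 lay close to no change, with 95% intervals on soft substrates of −0.14 to 0.24, −0.24 to 0.19 and −0.16 to 0.20. The interval of Dusp4 was wider (−0.50 to 0.63), as its libraries at 2 h had 4.81 and 2.47 CPM.

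By 12 h after CHIRON removal, the Dusp genes had moved in both directions. Of the 8, 2 rose and 3 fell on soft substrates and 2 rose and 2 fell on stiff substrates, against 17.8% of all tested genes called on soft (9.18% higher, 8.63% lower) and 16.8% on stiff substrates (8.45% higher, 8.33% lower). The median log2 fold change of the 8 genes on soft substrates was −0.11 and that of all tested genes −0.0141; on stiff substrates they were −0.0618 and −0.0086.

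Dusp16, a phosphatase of JNK and p38, rose most. On soft substrates its libraries had 37.8 and 39.4 CPM at 0 h, 38.1 and 40.3 CPM at 2 h, and 85.2 and 83.2 CPM at 12 h. On stiff substrates they had 40.0 and 45.6 CPM, 43.8 CPM, and 77.6 and 84.6 CPM. The 2 h libraries lay within or next to the range at 0 h, and all 4 libraries at 12 h were above all of those at 0 h and 2 h. The log2 fold change at 12 h was 1.13 ± 0.0904 on soft (2.18-fold, adjusted p = 1.12e-07) and 0.92 ± 0.0906 on stiff substrates (1.89-fold, adjusted p = 1.12e-06). Both calls remained with the discarded library added (adjusted p = 0.00234 and 0.00864).

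Dusp9, the ERK phosphatase of the X chromosome, also rose. It had 18.9 and 20.3 CPM at 0 h and 27.3 and 28.0 CPM at 12 h on soft substrates, and 19.3 and 20.2 CPM and 30.9 and 29.0 CPM on stiff substrates. The libraries of 12 h did not overlap with those of 0 h. The log2 fold change was 0.50 ± 0.104 (adjusted p = 0.00259) on soft and 0.60 ± 0.105 (adjusted p = 5.19e-04) on stiff substrates. Both calls were lost with the discarded library added, at 0.50 (adjusted p = 0.156) and 0.61 (adjusted p = 0.0688).

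Dusp1 fell on both substrates. On soft substrates it went from 91.6 and 91.7 CPM at 0 h to 57.4 and 51.3 CPM at 12 h, and on stiff substrates from 82.7 and 92.0 CPM to 46.2 and 53.1 CPM. Every library of 12 h was below every library of 0 h and 2 h. The log2 fold change was −0.75 ± 0.0996 (1.68-fold lower, adjusted p = 3.25e-05) and −0.82 ± 0.101 (1.76-fold lower, adjusted p = 1.50e-05).

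Dusp10, the other phosphatase of JNK and p38, fell where Dusp16 rose. It had 20.5 and 20.1 CPM at 0 h and 16.6 and 11.0 CPM at 12 h on soft substrates, and 17.4 and 21.8 CPM and 13.0 and 10.9 CPM on stiff substrates. The groups did not overlap, but the libraries of 12 h on soft substrates were far apart. The log2 fold change was −0.53 ± 0.164 (adjusted p = 0.0309) on soft and −0.71 ± 0.170 (adjusted p = 0.00679) on stiff substrates. The call on soft substrates was lost without soft 12 h replicate 2 (log2 fold change −0.28, adjusted p = 0.310), without soft 0 h replicate 1 (−0.49, 0.159) or without soft 0 h replicate 2 (−0.55, 0.113), and the value was −0.88 without soft 12 h replicate 1. That on stiff substrates was lost without stiff 0 h replicate 2 (−0.53, 0.0848) or stiff 12 h replicate 2 (−0.59, 0.106). Both were lost with the discarded library added (adjusted p = 0.254 and 0.0963).

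Dusp6, the ERK feedback phosphatase, was lower than at 0 h in every library of 12 h. It had 16.6 and 16.2 CPM at 0 h and 10.0 and 11.1 CPM at 12 h on soft substrates, where it fell (log2 fold change −0.65 ± 0.126, 1.57-fold lower, adjusted p = 0.00145). On stiff substrates it had 18.2 and 17.6 CPM and 15.8 and 13.8 CPM, with a log2 fold change of −0.28 ± 0.124 that missed the threshold (adjusted p = 0.144). The difference between these responses, soft minus stiff, was −0.37 ± 0.177 (95% interval −0.72 to −0.02) and was not called by edgeR (adjusted p = 1.00). The call on soft substrates was lost with the discarded library added (log2 fold change −0.64, adjusted p = 0.126).

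The remaining genes did not pass the threshold at 12 h after CHIRON removal. Dusp7 had 28.6 to 31.4 CPM over the 4 libraries of 0 h and 32.9 to 36.1 CPM over those of 12 h, which did not overlap (log2 fold changes 0.24 and 0.15, adjusted p = 0.0945 and 0.319). Dusp5 had 6.25 to 7.11 CPM and 5.55 to 7.62 CPM, and its log2 fold change was −0.28 on soft and 0.22 on stiff substrates. Dusp4 had 2.93 to 4.01 CPM and 2.62 to 3.71 CPM, and its intervals on soft and stiff substrates ran from −0.49 to 0.62 and from −0.94 to 0.23.

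**Figure D1:**
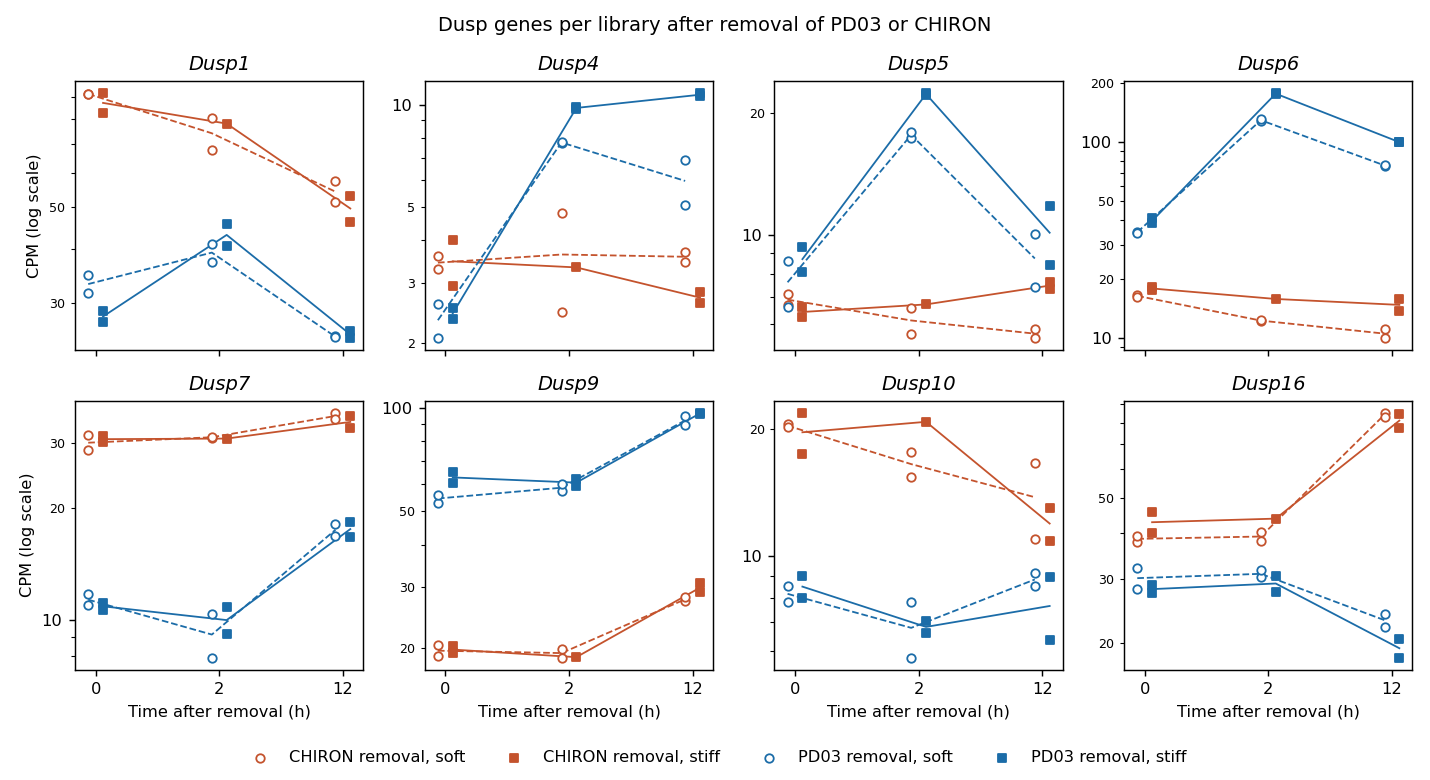
CPM on a log scale (y axis) of each Dusp gene at 0 h, 2 h and 12 h (x axis, evenly spaced) in every library used, each with its own scale, with dashed (soft) and solid (stiff) lines through the group means; blue marks PD03 removal, orange CHIRON removal, open circles soft and filled squares stiff substrates. Dusp16 ended above its 0 h values after CHIRON removal and below them after PD03 removal, and Dusp6 peaked at 128 to 178 CPM at 2 h after PD03 removal only.

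From 2 h to 12 h after CHIRON removal, Dusp9 and Dusp16 rose and Dusp1 fell on both substrates, and Dusp10 fell on stiff substrates, against 16.9% of all genes called on soft (8.36% higher, 8.54% lower) and 10.4% on stiff substrates (4.96% higher, 5.44% lower). For Dusp16 the log2 fold change was 1.10 ± 0.0913 on soft (adjusted p = 1.98e-07) and 0.89 ± 0.113 on stiff substrates (adjusted p = 4.62e-05). For Dusp9 it was 0.52 ± 0.106 and 0.67 ± 0.130 (adjusted p = 0.00222 on both). For Dusp1 it was −0.45 ± 0.101 and −0.66 ± 0.120, and for Dusp10 on stiff substrates −0.80 ± 0.199 (adjusted p = 0.0153). The call of Dusp1 on soft substrates was lost without soft 12 h replicate 2 (−0.36, adjusted p = 0.0628) or soft 2 h replicate 1 (−0.30, adjusted p = 0.0915), and that of Dusp10 on stiff substrates without stiff 12 h replicate 2 (−0.67, adjusted p = 0.124). Dusp10 on soft substrates was called only without soft 12 h replicate 1 (−0.58, adjusted p = 0.0492). With the discarded library added, Dusp16 was the only one called on either substrate.

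After PD03 removal, which releases ERK signalling, the order of events was different. At 2 h, 3 of the 8 genes rose on soft and 4 on stiff substrates, and none fell. Of all 13405 tested genes, 1.96% were called on soft (1.31% higher, 0.649% lower) and 2.73% on stiff substrates (1.84% higher, 0.895% lower). Dusp6 had 35.0 and 34.5 CPM at 0 h and 128 and 131 CPM at 2 h on soft substrates, and 38.5 and 40.8 CPM and 176 and 178 CPM on stiff substrates. Dusp4 had 2.07 to 2.60 CPM over the 4 libraries of 0 h and 7.70 to 9.85 CPM over those of 2 h. Both genes were higher in every library of 2 h, by 3.73-fold and 4.45-fold for Dusp6 and 3.32-fold and 4.01-fold for Dusp4 on soft and stiff substrates. Dusp5 rose from between 6.61 and 9.29 CPM to between 17.3 and 22.4 CPM. Dusp1 had 34.7 and 31.5 CPM and 37.3 and 41.1 CPM on soft substrates (log2 fold change 0.24 ± 0.0854, adjusted p = 0.198) and 28.7 and 27.0 CPM and 40.6 and 45.6 CPM on stiff substrates, where it rose (0.63 ± 0.0846, adjusted p = 7.89e-06). The other 4 genes, Dusp7, Dusp9, Dusp10 and Dusp16, lay between −0.32 and 0.10 on the log2 scale.

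By 12 h after PD03 removal the pattern had changed within the family. The mitochondrial share was also above that of 0 h in every library, and its part was not tested. On soft substrates 4 genes rose and 2 fell, and on stiff substrates 4 rose and 1 fell, against 29.4% of all genes called on soft (14.1% higher, 15.3% lower) and 38.4% on stiff substrates (18.5% higher, 19.9% lower). Dusp4 and Dusp6 were still raised. Dusp4 had 6.88 and 5.08 CPM on soft and 10.6 and 10.8 CPM on stiff substrates, a rise of 1.36 ± 0.209 and 2.13 ± 0.190 on the log2 scale. Dusp6 had 75.6 and 76.7 CPM and 99.9 and 100.2 CPM, with log2 fold changes of 1.13 ± 0.0616 and 1.33 ± 0.0591. Dusp5 had returned to 7.43 to 11.8 CPM, which overlapped with 0 h, and its log2 fold changes of 0.21 and 0.22 were not called.

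Dusp7 and Dusp9, the other cytoplasmic ERK phosphatases, were called at 12 h and not at 2 h. Dusp7 had between 10.7 and 11.7 CPM at 0 h and between 16.7 and 18.4 CPM at 12 h, with log2 fold changes of 0.63 ± 0.129 and 0.69 ± 0.130. Dusp9 had between 53.0 and 65.0 CPM and between 89.6 and 97.0 CPM, with log2 fold changes of 0.76 ± 0.0623 and 0.62 ± 0.0615. From 2 h to 12 h both genes rose on both substrates, by 0.65 to 0.94 on the log2 scale.

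Dusp16 moved the other way than after CHIRON removal. It had 32.2 and 28.1 CPM at 0 h and 22.2 and 24.1 CPM at 12 h on soft substrates, and 28.9 and 27.4 CPM and 20.5 and 18.3 CPM on stiff substrates, so the groups did not overlap. It fell by 0.38 ± 0.0948 (adjusted p = 0.00282) and 0.53 ± 0.0998 (adjusted p = 1.07e-04) on the log2 scale. The call on soft substrates was lost without soft 0 h replicate 1 (log2 fold change −0.28, adjusted p = 0.0852) or soft 12 h replicate 1 (−0.32, adjusted p = 0.0503). Dusp1 fell on soft substrates (−0.41 ± 0.0893, adjusted p = 8.69e-04), whereas the value on stiff substrates was −0.13 ± 0.0924 (adjusted p = 0.266). Dusp10 had 7.82 to 8.98 CPM at 0 h and 6.35 to 9.12 CPM at 12 h, and was not called on either substrate.

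Between 2 h and 12 h after PD03 removal, 2 genes rose and 4 fell on each substrate, against 31.4% of all genes called on soft (15% higher, 16.4% lower) and 37.5% on stiff substrates (18.0% higher, 19.4% lower). Those that fell were Dusp1 (−0.65 and −0.77), Dusp5 (−1.01 and −1.15), Dusp6 (−0.77 and −0.82) and Dusp16 (−0.42 and −0.58), in log2 fold change on soft and stiff substrates. Dusp4 was not called on either substrate. Its log2 fold change was −0.38 ± 0.176 on soft substrates (95% interval −0.72 to −0.03, adjusted p = 0.104), where both libraries of 12 h were below both of 2 h, and 0.13 ± 0.158 on stiff substrates, and without soft 12 h replicate 1 it was called on soft substrates (−0.61, adjusted p = 0.0438). Dusp10 on soft substrates, at 0.39 ± 0.177, was called only without soft 2 h replicate 2 (0.61, adjusted p = 0.0443).

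**Figure D2:**
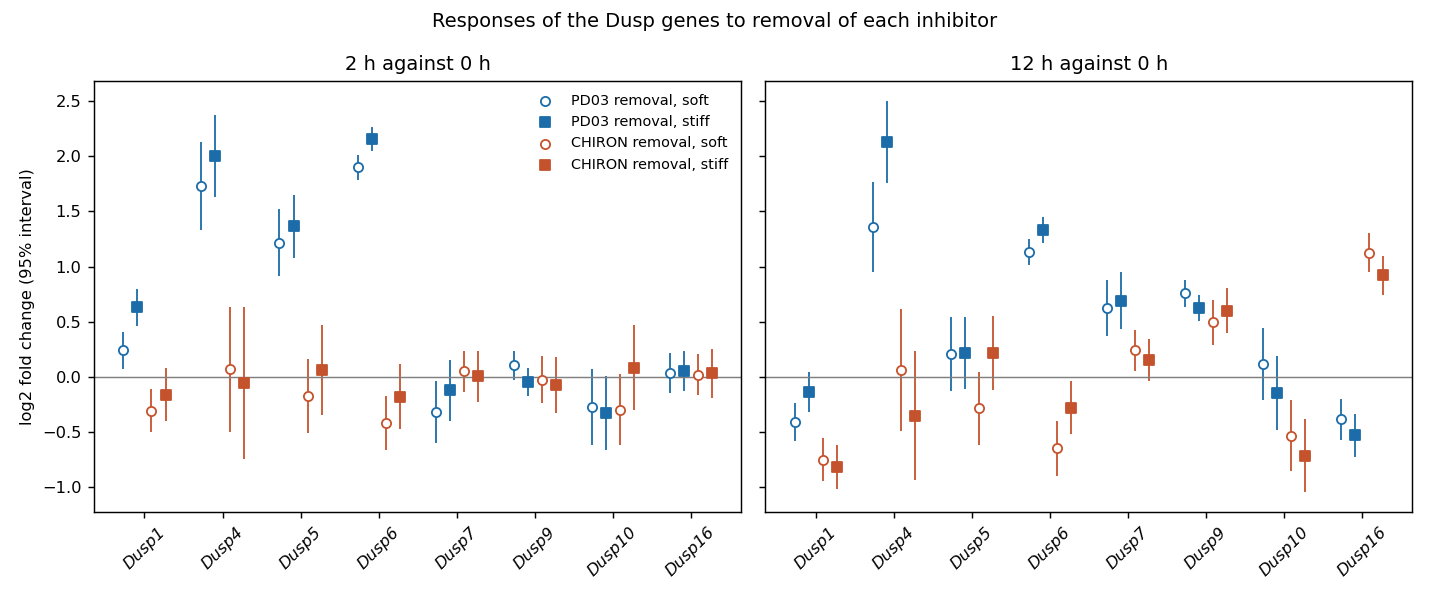
Log2 fold change against 0 h (y axis) of each Dusp gene (x axis) at 2 h (left) and 12 h (right), with 95% intervals; blue marks PD03 removal, orange CHIRON removal, open circles soft and filled squares stiff substrates. At 2 h the blue points of Dusp4, Dusp5 and Dusp6 lie between 1.22 and 2.15, and the orange points of all 8 genes lie between −0.42 and 0.08.

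The responses to the inhibitors were compared directly in a model of all 23 libraries, as the response to CHIRON removal minus that to PD03 removal. The experiments share no library, and each response was taken against the 0 h libraries of its own experiment. The inhibitor removed and the library set still cannot be told apart in these differences. At 2 h, 4 of the 8 genes had a lower response to CHIRON removal on each substrate, against 0.801% of all 14730 tested genes called on soft (0.353% higher, 0.448% lower) and 0.788% on stiff substrates (0.238% higher, 0.550% lower). Averaged over the substrates, the same 4 genes were called, against 3.50% of all genes (1.83% higher, 1.66% lower). The difference was −2.33 ± 0.0847 for Dusp6 (adjusted p = 5.65e-17), −1.87 ± 0.256 for Dusp4 (adjusted p = 2.87e-05), −1.35 ± 0.177 for Dusp5 (adjusted p = 1.37e-05) and −0.67 ± 0.0980 for Dusp1 (adjusted p = 7.46e-05), on the log2 scale. The others were not separated, with 95% intervals of 0.01 to 0.48 for Dusp7, −0.25 to 0.09 for Dusp9, −0.18 to 0.56 for Dusp10 and −0.21 to 0.17 for Dusp16.

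On single substrates the 2 h differences of Dusp6 were called without any 1 of the libraries that could be left out. The lone stiff 2 h library of CHIRON removal could not be, as its group would be empty. Those of Dusp1 and Dusp4 on soft substrates lost their calls without some libraries. The difference of Dusp1 on soft substrates was −0.54 ± 0.132 (adjusted p = 0.0433) and lost its call without any of 7 of the 8 libraries compared. It was −0.61 (adjusted p = 0.0866) and −0.48 (0.220) without replicates 1 and 2 of PD03 removal at 0 h, −0.61 (0.0782) and −0.48 (0.243) without those at 2 h, −0.58 (0.0891) and −0.57 (0.102) without those of CHIRON removal at 0 h, and −0.44 (0.148) without CHIRON removal 2 h replicate 2. With all genes in place of protein-coding genes it was −0.60 (adjusted p = 0.0503). The difference of Dusp4 on soft substrates was −1.67 ± 0.347 (adjusted p = 0.0134). It lost its call without replicate 1 of PD03 removal at 0 h (−1.50, adjusted p = 0.120), replicate 1 or 2 of PD03 removal at 2 h (−1.67, 0.0569, and −1.66, 0.0521), replicate 1 of CHIRON removal at 0 h (−1.64, 0.0544) or replicate 2 of CHIRON removal at 2 h (−1.27, 0.0666). In these 5 cases 2 of the 8 genes were left as called. That of Dusp5 on stiff substrates (−1.31 ± 0.261, adjusted p = 0.00765) was lost without PD03 removal 0 h replicate 2 (−1.20, adjusted p = 0.0598). With the discarded library added, which had 10 counts of Dusp4 and 0 of Dusp5 and Dusp6, 2 of the 8 differences at 2 h were called on soft and 1 on stiff substrates, and averaged over the substrates 3 were called, with Dusp4 lost (−1.60, adjusted p = 0.181).

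At 12 h the differences ran in both directions. Averaged over the substrates, 1 gene had a higher and 5 a lower response to CHIRON removal than to PD03 removal, against 36.2% of all genes called (17.5% higher, 18.7% lower). Dusp16 had the higher response, by 1.48 ± 0.0910 (95% interval 1.30 to 1.66, adjusted p = 5.74e-13). It rose after CHIRON removal and fell after PD03 removal on each substrate, with differences of 1.51 ± 0.127 on soft and 1.45 ± 0.130 on stiff substrates. Those with a lower response were Dusp4 (−1.88 ± 0.245, adjusted p = 6.98e-07), Dusp6 (−1.70 ± 0.0802, adjusted p = 2.29e-15), Dusp10 (−0.61 ± 0.181, adjusted p = 0.00975), Dusp1 (−0.51 ± 0.0969, adjusted p = 1.39e-04) and Dusp7 (−0.46 ± 0.110, adjusted p = 0.00169). The call of Dusp10 was lost without PD03 removal stiff 12 h replicate 1 (−0.46, adjusted p = 0.0710). Dusp9, which rose after both removals, had a difference of −0.14 ± 0.0771 (95% interval −0.29 to 0.01, adjusted p = 0.159). For Dusp5, the interval ran from −0.58 to 0.09.

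By substrate, 3 of the 8 genes were called at 12 h on soft (Dusp4, Dusp6 and Dusp16, against 21.0% of all genes, 10.5% higher and 10.5% lower) and 5 on stiff substrates (also Dusp1 and Dusp7, against 23.5%, 11.1% higher and 12.4% lower). On soft substrates, Dusp4 lost its call without replicate 1 of PD03 removal at 0 h (−1.12, adjusted p = 0.0551) or at 12 h (−1.06, adjusted p = 0.0632). Without CHIRON removal soft 12 h replicate 1, 5 genes were called, as Dusp1 (−0.44, adjusted p = 0.0400) and Dusp10 (−1.01, adjusted p = 0.00569) were added. On stiff substrates, Dusp7 (−0.54 ± 0.157, adjusted p = 0.0128) lost its call without PD03 removal 12 h replicate 1 (−0.46, adjusted p = 0.0836), and Dusp10 was called without CHIRON removal 0 h replicate 1 (−0.74, adjusted p = 0.0499). With the discarded library added, Dusp4 on soft (adjusted p = 0.296) and Dusp7 on stiff substrates (adjusted p = 0.0846) were no longer called.

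**Figure D3:**
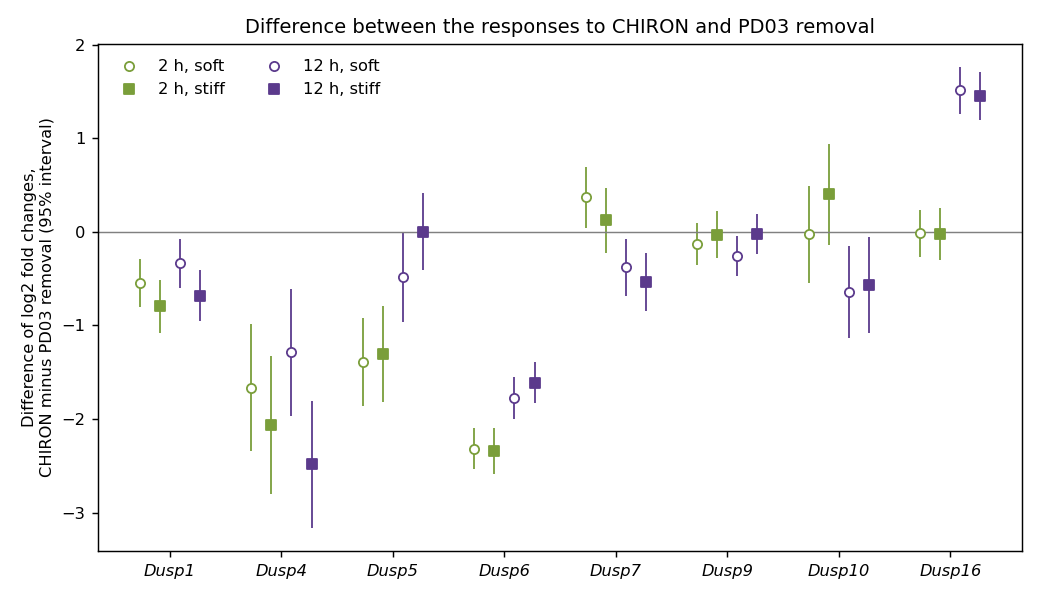
Difference between the log2 fold changes of CHIRON and PD03 removal (y axis) for each Dusp gene (x axis), with 95% intervals; green marks 2 h, purple 12 h, open circles soft and filled squares stiff substrates. Dusp6 is the lowest at 2 h, at −2.32 and −2.34, and Dusp16 stands at 1.51 and 1.45 at 12 h after no difference was called at 2 h.

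To see whether substrate stiffness bears on these genes, soft was compared with stiff at each time. After CHIRON removal, edgeR called 0 of the 8 genes at 0 h, 2 h and 12 h, and DESeq2 also called 0. Of all tested genes, 0.00% were called by edgeR at each time. At an unadjusted p under 0.05 there were 0, 1 and 2 of the 8 genes, against 508, 837 and 471 of all 14610 genes. The largest difference was that of Dusp6 at 12 h, with 10.0 and 11.1 CPM on soft and 15.8 and 13.8 CPM on stiff substrates. These libraries did not overlap, the log2 fold change was −0.50 ± 0.128 (95% interval −0.75 to −0.24) and the adjusted p was 0.999. Dusp6 on soft substrates was also the lower one at 2 h, with 12.24 and 12.33 CPM against 15.8 CPM in 1 library (log2 fold change −0.37 ± 0.152, adjusted p = 0.819). Dusp16, which rose most, had a 95% interval of −0.12 to 0.23 at 12 h, and Dusp1 one of −0.07 to 0.33.

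After PD03 removal, edgeR called 0 of the 8 genes between substrates at 0 h, against 0.0298% of all genes, and DESeq2 also called 0. At an unadjusted p under 0.05 there were 3 of the 8 genes at 0 h, against 970 of all 13405 genes. Dusp9 (log2 fold change −0.20 ± 0.0636, adjusted p = 0.454) and Dusp6 were the lower ones on soft substrates. Dusp1 was higher there (0.26 ± 0.0860, adjusted p = 0.466). By edgeR, 1 gene was called at 2 h (0.134%, with 0.00746% higher and 0.127% lower) and 2 at 12 h (0.776%, with 0.291% higher and 0.485% lower). Dusp6 was lower on soft substrates at 2 h (−0.45 ± 0.0509, adjusted p = 6.10e-06) and at 12 h (−0.39 ± 0.0558, adjusted p = 3.36e-04). The mitochondrial share was also lower on soft substrates at both times (7.14% and 7.72% against 9.48% and 8.90% at 2 h, 10.75% and 10.03% against 11.81% and 11.80% at 12 h), and its part in these differences was not tested. At 0 h its log2 fold change was −0.19 ± 0.0653 (adjusted p = 0.466), with all 4 libraries between 34.5 and 40.8 CPM and those on soft substrates below those on stiff. Dusp4 was lower on soft substrates at 12 h (−0.84 ± 0.169, adjusted p = 0.00834). This call was lost, and 1 gene left, without soft 12 h replicate 2 (−0.64, adjusted p = 0.292), stiff 12 h replicate 1 (−0.85, adjusted p = 0.108) or stiff 12 h replicate 2 (−0.83, adjusted p = 0.116). The log2 fold changes between substrates of Dusp7 and Dusp10 had intervals that included 0 at all 3 times in both experiments.

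When the difference between the responses on soft and stiff substrates was tested, 0 of the 8 genes were called by edgeR at 2 h or 12 h in either experiment, and 0 by DESeq2. For PD03 removal at 2 h, 0.00746% of all genes were called, and 0.00% in the other 3 tests. At an unadjusted p under 0.05 there were 2 of the 8 genes at 2 h and 3 at 12 h after PD03 removal. Over all 13405 genes there were 609 and 899. After CHIRON removal there were 0 of the 8 at both times, against 451 and 414 of all 14610 genes. The 2 genes at 2 h after PD03 removal were Dusp1 (−0.39 ± 0.120) and Dusp6 (−0.26 ± 0.0829). Those at 12 h were Dusp4 (−0.78 ± 0.294), Dusp6 (−0.20 ± 0.0860) and Dusp1 (−0.27 ± 0.129). All these responses were lower on soft substrates, with adjusted p-values of 0.624 or more. Dusp1 started from a higher 0 h level on soft substrates, by a log2 fold change of 0.26 that was not called.

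**Figure D4:**
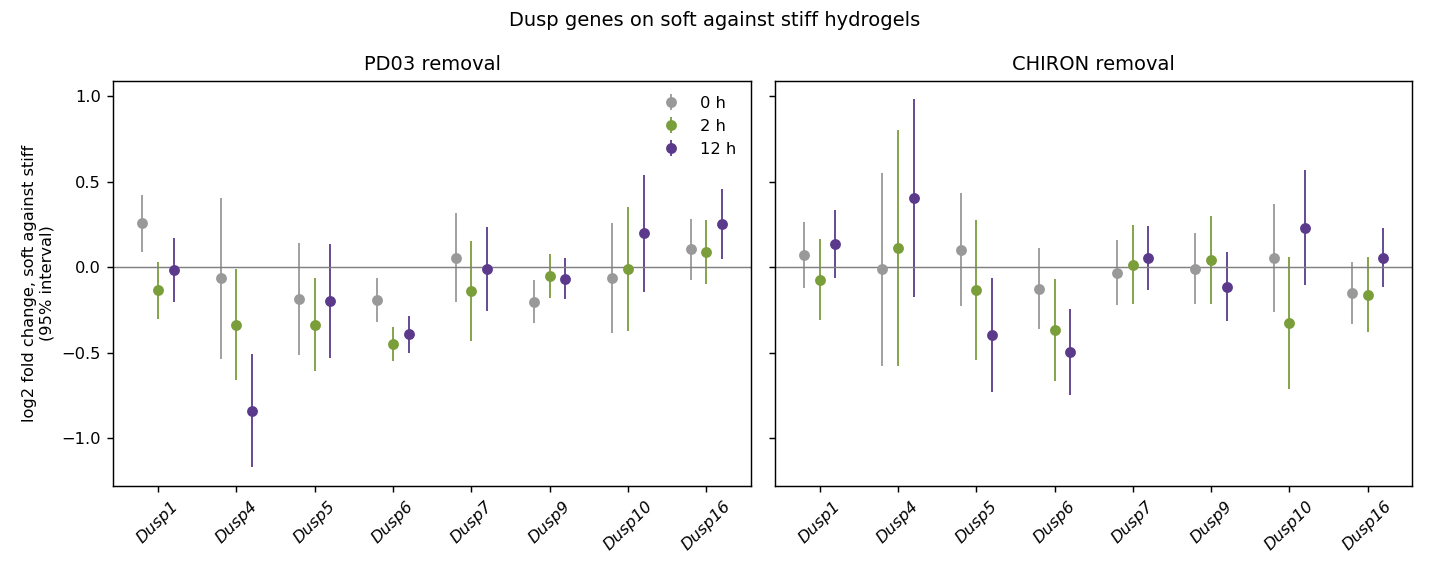
Log2 fold change of soft against stiff substrates (y axis) for each Dusp gene (x axis) after PD03 removal (left) and CHIRON removal (right), with 95% intervals; grey marks 0 h, green 2 h and purple 12 h. Dusp6 lies below 0 at every time in both experiments, from −0.13 to −0.50, and was called in PD03 removal at 2 h and 12 h only.

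The genes also differed in how they varied together. Pearson's r of log2 CPM over the 12 libraries of PD03 removal, which share the times and substrates, was 0.926 for Dusp4 and Dusp6, 0.847 for Dusp5 and Dusp6, 0.908 for Dusp7 and Dusp9, and −0.918 for Dusp9 and Dusp16. Over the 11 libraries of CHIRON removal, Dusp9 and Dusp16 instead had an r of 0.962, Dusp7 and Dusp16 of 0.918 (−0.873 after PD03 removal), and Dusp4 and Dusp6 of −0.133. Dusp1 and Dusp9 had a negative r in both (−0.744 and −0.891). These values describe the libraries, which fall into groups of time, and were not tested.

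Among the 14730 genes tested in all 23 libraries, those with the pattern most like a Dusp gene were found by Pearson's r of log2 CPM centred within each experiment. For Dusp5 they were Egr1 (r = 0.956), Maff (0.889) and Fos (0.850), which encode early response transcription factors. For Dusp6 they were Cep55 (0.930), Phlda1 (0.905) and Rbpj (0.884). Dusp9 was matched most closely by Itga3 (0.981), Fam129b (0.979) and Myrf (0.968), Dusp16 by Fgd1 (0.964), Cdc42se1 (0.962) and Fndc3b (0.960), and Dusp7 by St3gal2 (0.934), Ahdc1 (0.928) and Dnajb5 (0.925). For Dusp1 they were Crygd (0.910), Rpe (0.909) and Slc6a8 (0.906), and for Dusp10, with the lowest values, Cdkn2aipnl (0.828), Pop1 (0.810) and Bhlhe40 (0.810).

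Other genes of the pathway were counted in the same fits. Of 8 listed ERK feedback inhibitors (Sprouty, Spred and Il17rd), 7 were tested. After PD03 removal 4 of them rose at 2 h and 7 at 12 h on each substrate, against 1.31% and 1.84% of all genes higher at 2 h and 14.1% and 18.5% at 12 h on soft and stiff. Spry4 led at 2 h (log2 fold change 3.12 ± 0.0824 on soft and 3.14 ± 0.0770 on stiff). After CHIRON removal, Spry4 was the 1 that fell at 2 h, by 1.00 ± 0.175 on soft (adjusted p = 0.0161) and 1.25 ± 0.220 on stiff substrates (adjusted p = 0.0286) on the log2 scale. Of all genes, 0.226% on soft and 0.103% on stiff substrates were called in either direction at 2 h. By 12 h, 5 of 7 fell on each substrate, against 8.63% and 8.33% of all genes lower. At 12 h these included Spry2 (−1.35 ± 0.0947 and −1.24 ± 0.0949) and Spred1 (−1.16 ± 0.106 and −1.04 ± 0.107). Of 11 listed ERK target genes, 10 were tested after PD03 removal. Of these, 6 rose at 2 h and 4 at 12 h on each substrate, against the same shares of all genes higher as above. At 12 h after CHIRON removal, 2 rose and 2 fell on soft substrates, against 9.18% of all genes higher and 8.63% lower. On stiff substrates 3 rose and 2 fell, against 8.45% higher and 8.33% lower. Those that fell were Myc (−2.30 ± 0.133 and −1.53 ± 0.127) and Etv4 (−0.80 ± 0.0853 and −0.65 ± 0.0852), and those that rose on both substrates were Ier3 (1.93 ± 0.333 and 1.28 ± 0.313) and Jun (0.75 ± 0.173 and 0.65 ± 0.192). The medians of the feedback list at 12 h after CHIRON removal were −0.872 on soft and −0.837 on stiff substrates, against −0.0141 and −0.0086 over all genes.

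The kinases that the phosphatases act on, and their activators, were counted at 12 h after CHIRON removal, where 17.8% of all genes were called on soft and 16.8% on stiff substrates. Of 10 listed genes of the Ras, Raf, MEK and ERK cascade, 2 rose and 1 fell on each substrate, with Map2k1 (MEK1) at 0.38 and 0.50 (adjusted p = 0.0116 and 0.00191) and Nras at −0.37 ± 0.0802 and −0.32 ± 0.0804. Of 11 genes of JNK, p38 and their kinases, 1 rose and 1 fell on each substrate. The one that fell was Mapk8, which encodes JNK1, by 0.54 ± 0.113 on soft (adjusted p = 0.00261) and 0.69 ± 0.112 on stiff substrates (adjusted p = 2.58e-04) on the log2 scale. Mapk8 also fell at 12 h after PD03 removal (−0.38 ± 0.0705 and −0.36 ± 0.0715). As a check of CHIRON removal, 2 of 12 listed Wnt targets, Sp5 and Axin2, fell at 2 h on each substrate. Of all genes, 0.226% on soft and 0.103% on stiff substrates were called in either direction at that time. The log2 fold change of Axin2 was −0.56 on both substrates at 2 h and −2.65 and −2.58 at 12 h, and 10 and 9 of 12 listed Wnt targets fell at 12 h on soft and stiff substrates while 1 rose. After PD03 removal, 2 of 11 tested Wnt targets also fell at 2 h on each substrate, Axin2 (−0.22 ± 0.0567 and −0.30 ± 0.0568) among them. Over all genes, 0.649% on soft and 0.895% on stiff substrates were lower at 2 h. At 12 h, 7 Wnt targets rose and 1 fell on soft substrates, against 14.1% of all genes higher and 15.3% lower. On stiff substrates 6 rose and 2 fell, against 18.5% higher and 19.9% lower. Sp5 was not called at 2 h after PD03 removal (0.08 ± 0.0763 and 0.19 ± 0.0755).

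Of 18 other dual-specificity phosphatase genes, 12 passed the filter in PD03 removal and 13 in CHIRON removal. At 12 h after CHIRON removal, 4 rose and 1 fell on soft and 2 rose and 1 fell on stiff substrates, against 17.8% and 16.8% of all genes called. Dusp14 rose (0.80 ± 0.0894 and 0.76 ± 0.0899), as did Dusp27 (0.58 and 0.59, adjusted p = 5.05e-04 and 4.50e-04), and Dusp11 fell (−0.67 ± 0.0764 and −0.60 ± 0.0766). At 12 h after PD03 removal, 1 rose on soft substrates and 2 rose and 1 fell on stiff substrates, against 29.4% and 38.4% of all genes called. Dusp27 rose there too, by 0.14 ± 0.0477 and 0.17 ± 0.0474, and Dusp14 had log2 fold changes of 0.04 and −0.25 that were not called.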

How the data were processed

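RNA (ribosomal RNA depleted, total RNA libraries) was sequenced in 24 libraries. The authors trimmed reads with Trim Galore, aligned them to GRCm38 with TopHat2 2.1.0 and deposited raw counts per gene from featureCounts 1.5.0. The strand setting is not given in the sources used here, and 12 columns of other samples and 23 rows that name no gene were not used. Counts of protein-coding genes were tested with edgeR 4.0.16 in R 4.3.3 (TMM, filterByExpr with minimum counts of 10 and 15, quasi-likelihood test, Benjamini-Hochberg adjustment over all tested genes, threshold 0.05), with 6 groups in 1 model per experiment and 12 groups in 1 model for differences between experiments. Intervals are the log2 fold change ± 1.96 SE. CPM values are scaled by TMM, and levels per kilobase use merged exons.

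The alternatives were DESeq2 1.42.0, its size factors, no filter on low counts and all genes in place of protein-coding genes. Others were fewer groups in the model, a replicate block, each library left out and the discarded library added. The lone stiff 2 h library of CHIRON removal was not left out. Library totals are given with the results. Replicates differed by more than counting noise (chi-square per degree of freedom 2.23 to 3.24 after PD03 and 6.55 to 19.7 after CHIRON removal, common biological coefficient of variation 0.0386 and 0.0797), and the deeper CHIRON removal libraries varied more. Deviations of same-numbered libraries correlated at −0.053 to 0.113 after PD03 removal and −0.109 to 0.071 after CHIRON removal, so the numbers were not taken to pair libraries. The 8 genes and the gene lists were chosen with earlier results of these data known. All 8 were named, and of each list those with the smallest p or needed to check an inhibitor. The edgeR procedure was tested on simulated data. The genes with the pattern most like Dusp4 are not reported here.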

Additional observations from a re-analysis of the deposited data

Results flagged for a closer look

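The responses to CHIRON and PD03 removal differed by a test of the difference itself for the following genes, given as CHIRON minus PD03 removal on the log2 scale. The inhibitor removed and the library set cannot be told apart in these values. At 2 h on soft substrates, Dusp6 differed by −2.32, Dusp4 by −1.67, Dusp5 by −1.39 and Dusp1 by −0.54. On stiff substrates at 2 h the differences were −2.34 for Dusp6, −2.07 for Dusp4, −1.31 for Dusp5 and −0.80 for Dusp1. At 12 h on soft substrates, Dusp16 differed by 1.51, Dusp6 by −1.78 and Dusp4 by −1.29. On stiff substrates at 12 h, the values were 1.45 for Dusp16, −1.61 for Dusp6, −2.48 for Dusp4, −0.68 for Dusp1 and −0.54 for Dusp7. Adjusted p-values of edgeR's test ranged from 1.09e-13 to 0.0433. Some of these calls were lost when single libraries were left out, as given above. On soft substrates they were those of Dusp1 at 2 h and of Dusp4 at 2 h and 12 h. On stiff substrates they were those of Dusp5 at 2 h and Dusp7 at 12 h.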

How the results depend on the processing

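With DESeq2, DESeq2 size factors, no filter on low counts, all genes or fewer groups in the model, the count of Dusp genes called stayed within 1.5 times in all 28 comparisons, and no log2 fold change reversed while called. Single calls that moved were Dusp10 at 12 h after CHIRON removal on soft substrates (−0.52, adjusted p = 0.0676) and Dusp1 in the 2 h difference on soft substrates (−0.60, 0.0503), both lost with all genes. Dusp10 (−0.65, adjusted p = 0.0194, no filter) and Dusp1 (−0.34, 0.0466, only the groups compared) were gained in the 12 h difference on soft substrates. With a replicate block, Dusp1 lost its call in the 2 h difference on soft substrates (−0.55, adjusted p = 0.0815) and no other call of the 8 genes changed, but the replicate numbers share only a number. Over all genes, the block moved the calls at 2 h after CHIRON removal from 33 to 21 on soft and from 15 to 4 on stiff substrates. With the discarded library added, the Dusp genes called were 2 on soft and 2 on stiff substrates at 12 h against 0 h after CHIRON removal, 1 and 1 at 12 h against 2 h, and 2 and 1 in the 2 h differences. Over all genes it moved the calls at 12 h against 0 h from 2602 to 457 on soft and from 2452 to 461 on stiff substrates, at 12 h against 2 h from 2468 to 372 and from 1520 to 207, and at 2 h from 33 to 1 and from 15 to 0. It moved the differences at 2 h from 118 to 25, 116 to 22 and, averaged, 515 to 98, and at 12 h from 3097 to 941, 3465 to 1219 and 5327 to 2547. Leaving out 1 library at a time, the Dusp genes called ranged from 1 to 2 between substrates at 12 h after PD03 removal, from 2 to 4 in the 2 h difference on soft substrates and from 2 to 5 in the 12 h difference on soft substrates. With no filter on low counts, calls over all genes between substrates were 29, 73 and 188 at 0 h, 2 h and 12 h after PD03 removal (4, 18 and 104 with it) and 17, 54 and 15 after CHIRON removal (0 with it at each time). They were 144 and 89 at 2 h after CHIRON removal, 231 and 258 in the 2 h differences, and 6, 17, 14 and 7 in the tests of soft against stiff responses (1, 0, 0 and 0 with it). DESeq2 called 169 genes at 2 h after PD03 removal on soft substrates (263 by edgeR) and 2 between substrates at 0 h, where all genes gave 0. All genes gave 8 at 2 h after CHIRON removal on stiff substrates. Only the groups compared gave 175 between substrates at 12 h after PD03 removal, 30 at 2 h after CHIRON removal, 0 at 2 h after CHIRON removal on stiff substrates and 63 in the 2 h difference there. The causes were not tested. Dusp4, with 36 to 151 counts in each library used, had the widest intervals of the 8 genes at 2 h and 12 h after CHIRON removal.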
